A study of Mus musculus with 96 samples.

Results

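The blood vessels of the brain were followed through 36 genes that mark their walls: 26 genes of the endothelial cells that line the vessels, 7 genes of pericytes and 3 contractile genes of vascular smooth muscle. They were chosen by name from a fixed list, as the rows of the deposited count table that carry those gene names, and all 36 were found among its 48795 gene rows. Total RNA had been sequenced from the striatum and the cerebral cortex of 48 C57BL/6 mice aged 6 months, with both tissues taken from each animal, which gave 96 libraries. The animals fell into 6 genotypes of 8 (4 females and 4 males each): wild type (WT), heterozygous Q140 knock-in (Q140), Pms1+/- without and Pms1+/- with the knock-in (the latter named Q140 X Pms1+/-), and Pms1-/- without and with it (the latter named Q140 X Pms1-/-). Q140 carries an expanded CAG repeat in Htt, the gene mutated in Huntington's disease, and Pms1 encodes a mismatch repair protein. The genotypes name no cell type, so no comparison isolates the vessel wall, and the labels do not say which part of Pms1 was changed. The groups let the knock-in be compared with its own control at 2, 1 or 0 intact Pms1 alleles, and Pms1 loss be compared without the knock-in.

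Brain endothelial cells are joined by tight junctions and carry transporters that decide what crosses between blood and brain, the blood-brain barrier. Pericytes and smooth muscle cells wrap the endothelial tube: endothelial PDGF-B recruits pericytes through the receptor PDGFRB, and smooth muscle cells contract through an actin and myosin apparatus. WNT ligands from neural cells and the angiopoietin receptor TIE2 help to keep this barrier in place, and VEGF receptors are further growth factor receptors of endothelial cells. In bulk tissue, vascular RNA is a small share of each library, and a smaller number of vascular cells and less of a transcript per cell cannot be told apart in any of the values below.

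Gene counts summed to between 27993800 and 56364500 per striatal library and between 28672300 and 49176600 per cortical library. All levels are CPM (counts divided by library size) scaled by edgeR's normalization factors, unless FPKM (per length) is named, and all fold changes are log2 values with their standard error. A gene was called when edgeR's adjusted p over all tested genes lay below 0.05. The labelled tissues stood apart by their neurons: the summed level of 12 medium spiny neuron markers lay between 15404 and 17386 CPM in WT striatum and between 641 and 773 CPM in WT cortex. Pms1 itself lay between 4.89 and 5.85 CPM in WT striatum and between 3.08 and 4.47 CPM in Pms1-/- striatum, with no overlap, whereas the cortical ranges overlapped (3.30 to 4.37 and 2.95 to 4.05 CPM). Because the changed part of Pms1 is not named, a count over the whole gene does not check the labels. One feature of the animals bears on every Pms1-/- result: each animal carries a code of 2 numbers, and the first number is 16 or more in all 8 Pms1-/- and all 8 Q140 X Pms1-/- animals, but in only 2 WT, 3 Q140, 0 Pms1+/- and 1 Q140 X Pms1+/- animals. Of the 4 Pms1-/- females, 3 share the first code number 22. The labels do not say what the first number stands for.

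The promoters of 3 members that fell in striatum are shown as examples of what lies in front of these genes: Kdr (VEGF receptor 2) and the junction genes Ocln and Cldn5. Each is the RefSeq window of GRCm38.p6 from 250 bases before to 50 bases after the gene's start, on the gene's own strand, 5′ to 3′. Capitals mark a match of CCGGAA or its reverse complement TTCCGG, a core bound by ETS factors, the family that includes the endothelial regulators ERG and FLI1.
Kdr: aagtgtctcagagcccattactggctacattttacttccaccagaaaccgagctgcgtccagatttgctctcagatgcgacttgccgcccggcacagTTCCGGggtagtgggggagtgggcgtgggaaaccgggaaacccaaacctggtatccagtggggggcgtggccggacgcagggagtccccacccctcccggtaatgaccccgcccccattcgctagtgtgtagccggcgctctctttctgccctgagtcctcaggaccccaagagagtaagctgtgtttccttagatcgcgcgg
Ocln: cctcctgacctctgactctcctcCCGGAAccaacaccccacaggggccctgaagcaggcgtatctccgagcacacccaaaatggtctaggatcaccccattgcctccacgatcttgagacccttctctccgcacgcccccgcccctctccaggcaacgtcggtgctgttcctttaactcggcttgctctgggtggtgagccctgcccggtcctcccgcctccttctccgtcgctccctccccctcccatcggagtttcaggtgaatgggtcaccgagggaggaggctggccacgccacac
Cldn5: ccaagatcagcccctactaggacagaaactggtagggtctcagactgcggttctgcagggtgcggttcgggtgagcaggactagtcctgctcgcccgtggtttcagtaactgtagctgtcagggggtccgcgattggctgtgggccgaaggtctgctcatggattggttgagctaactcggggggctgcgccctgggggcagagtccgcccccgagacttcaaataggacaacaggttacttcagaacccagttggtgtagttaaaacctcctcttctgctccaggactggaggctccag
The Kdr window is chr5:75978406-75978705 (minus strand), with its match at position 98 counted from 1 at the 5′ end. The Ocln window is chr13:100552669-100552968 (minus strand), with its match at position 24. The Cldn5 window is chr16:18776597-18776896 (plus strand) and holds no match. RefSeq windows were found for 23 of the 36 members (29 windows). On either strand, CCGGAA was in those of Kdr and Ocln and in 14.9% of all 32851 windows. CATTGT, a SOX core, was in those of Abcg2 and Slco1a4 (12.6% of all), TGTTTAC, a forkhead core, in that of Abcb1a (3.65%), and CTTTGAT, a TCF/LEF core, in that of Egfl7 (3.73%). The CArG box, bound by the smooth muscle regulator SRF, was in no member window and in 1.63% of all. The ETS core was in 2 of the 29 member windows, a lower share than over all windows. The Kdr and Ocln windows shown are therefore not typical of the members. All of these matches describe letters in a window and were not compared with the expression values.

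On GRCm38 by the GENCODE annotation, Kdr spans bases 75932827 to 75978458 of chromosome 5, Cldn5 spans 18776847 to 18778262 of chromosome 16, and Tagln, which encodes the smooth muscle actin-binding protein transgelin, spans 45929619 to 45936058 of chromosome 9. Exons of 9 members overlap those of another gene, and no label states the strand setting of the counting, so reads of such pairs may be mixed. The overlap takes 66.1% of the exon bases of Foxq1 (with A530084C06Rik), 16.8% of Sox17 (with Gm37587), 10.1% of Abcb1a (with Gm42686) and 5.43% of Tagln (with Pcsk7). Pcsk7, a widely expressed protease gene, averaged 38.9 CPM in WT striatum and had a log2 fold change of 0.01 ± 0.05 in Q140 against WT. It rose in Pms1-/- against WT striatum (0.25 ± 0.05, adjusted p = 0.0025) and fell with the knock-in on Pms1-/- (-0.18 ± 0.05, adjusted p = 0.018). Ly6c1, Ly6a, Slco1a4 and Abcb1a have close family copies, and their counts are less certain for that reason.

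In WT animals the 36 genes spanned a wide range of levels per length. In striatum, Bsg, which encodes the cell-surface glycoprotein basigin and is not limited to vessels, was highest at 144 ± 5.49 FPKM (SD, n = 8). Slc2a1, the glucose transporter GLUT1, followed at 28.2 ± 3.48 FPKM, Itm2a, a membrane protein gene, at 26.8 ± 1.54, Vtn, which encodes the matrix protein vitronectin, at 23.9 ± 1.99, and Rgs5, a pericyte regulator of G-protein signalling, at 22.7 ± 0.903. Slc2a1 and Itm2a, and likewise Vtn and Rgs5, differed by less than 1 SD of the more variable gene of the pair. Cldn5, the main claudin of the barrier, had 11.8 ± 0.789 FPKM and Pdgfrb 4.89 ± 0.427, and the lowest member was Anpep, an aminopeptidase of pericytes, at 0.608 ± 0.0832. The median over the 36 members was 3.21 FPKM in striatum and 3.52 FPKM in cortex. The coefficient of variation of CPM between WT animals lay between 4.03% and 21.0% in striatum (median 9.00%) and between 3.99% and 21.6% in cortex (median 9.63%). It was largest for Sox18, an endothelial transcription factor gene, in striatum and for Tagln in cortex.

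Between the tissues of WT animals, 7 members were higher and 6 lower in striatum than in cortex, where 38.5% of all 19723 genes tested were called higher and 37.5% lower. The share of members called in each direction was below that background. Tagln was higher in striatum by 0.77 ± 0.12 (adjusted p = 1.6e-08), and the pericyte genes Higd1b, Notch3 and Abcc9 by 0.47 ± 0.10, 0.34 ± 0.05 and 0.18 ± 0.05. Emcn, the mucin-like endomucin of capillaries and veins, was higher by 0.40 ± 0.08, and the organic anion transporters Slco1a4 and Slco1c1 by 0.17 ± 0.06 and 0.10 ± 0.04. Anpep had the largest difference of all members, lower in striatum by a log2 value of -1.03 ± 0.11 (adjusted p = 3e-14): it lay between 2.23 and 3.23 CPM in WT striatum and between 4.29 and 6.46 CPM in WT cortex when each tissue was scaled on its own. The efflux pump gene Abcg2 (-0.44 ± 0.06), the secreted endothelial factor gene Egfl7 (-0.34 ± 0.08), Sox18 (-0.29 ± 0.13), the VE-cadherin gene Cdh5 (-0.16 ± 0.06) and Bsg (-0.15 ± 0.03) were lower too. With the animal as a block, 10 members were higher and 10 lower, where 7808 of all 19723 genes were called higher and 7576 lower.

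The knock-in was first compared on the WT background. In the striatum of Q140 animals, 14 of the 36 members fell and 0 rose against WT, in a comparison in which 15.4% of all 18890 genes tested fell and 15.9% rose. The members that fell were mostly endothelial: 6 of 10 junction and surface genes, 3 of 4 growth factor receptor genes, 2 of 6 barrier transporter genes and 1 of 2 genes of secreted proteins, against 0 of 4 transcription factor genes, 1 of 7 pericyte genes and 1 of 3 smooth muscle genes. In all, 30 of the 36 log2 fold changes lay below 0, with a median of -0.15, beside 0.01 over all genes. Most of the changes were small, between -0.14 and -0.34, and Tagln was the exception at -0.67. Without scaling for RNA composition, 7 members fell and 0 rose, with a median of -0.08, and the split over all genes went from 2999 higher and 2910 lower to 6337 higher and 1603 lower.

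Among the junction and surface genes, Cldn5 lay between 15.0 and 18.7 CPM in WT striatum (median 17.1) and between 11.1 and 17.0 CPM in Q140 striatum (median 14.2). The ranges overlapped, 6 of the 8 Q140 animals lay below the lowest WT animal, and all 8 below the WT median. Cldn5 fell by 0.29 ± 0.08 on the log2 scale (edgeR, adjusted p = 0.0069). Emcn had a range of 5.19 to 6.88 CPM in WT (median 6.09) and of 4.30 to 5.50 CPM in Q140 (median 4.95), with 5 Q140 animals below every WT animal, and fell by 0.32 ± 0.08 (adjusted p = 0.0012). Cdh5, the adhesion molecule that holds endothelial cells together, lay between 11.9 and 15.4 CPM in WT and between 10.6 and 12.6 CPM in Q140, and fell by 0.20 ± 0.05 (adjusted p = 0.0022). All 8 Q140 animals were below the WT median for Cdh5, and 5 below every WT animal. Esam, an adhesion molecule of endothelial junctions, lay between 14.4 and 18.2 CPM in WT (median 15.7) and between 12.1 and 15.7 CPM in Q140 (median 13.5), and fell by 0.22 ± 0.06 (adjusted p = 0.0042). Ocln, the tight junction protein occludin, lay between 6.14 and 8.64 CPM in WT (median 8.23) and between 6.40 and 7.91 CPM in Q140 (median 6.76), and fell by 0.19 ± 0.06 (adjusted p = 0.016). Its lowest animal of all was a WT animal, replicate 5, although all 8 Q140 animals were below the WT median. Itm2a lay between 45.6 and 53.4 CPM in WT and between 40.5 and 47.1 CPM in Q140, and fell by 0.14 ± 0.05 (adjusted p = 0.035). The platelet-endothelial adhesion gene Pecam1 stayed just outside the threshold (-0.11 ± 0.04, adjusted p = 0.053), and Ly6c1, Ly6a and Bsg had values of -0.01 ± 0.08, -0.06 ± 0.08 and -0.03 ± 0.03.

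The growth factor receptors showed the same picture. Flt1, which encodes VEGF receptor 1, lay between 75.7 and 89.2 CPM in WT striatum (median 84.2) and between 66.3 and 75.9 CPM in Q140 striatum (median 72.2). The 2 ranges touched through 1 animal, since 7 of the 8 Q140 animals were below the lowest WT animal. Flt1 fell by 0.22 ± 0.04 (adjusted p = 8.8e-05), to 0.860 of its WT level. Kdr ranged from 10.8 to 15.9 CPM in WT and, more widely, from 7.06 to 13.9 CPM in Q140, and fell by 0.34 ± 0.12 (adjusted p = 0.03). Kdr had 4 Q140 animals below the WT range and 7 below the WT median. Tek, the gene of the angiopoietin receptor TIE2, lay between 12.2 and 15.3 CPM in WT (median 13.9) and between 10.8 and 13.8 CPM in Q140 (median 11.5), and fell by 0.22 ± 0.06 (adjusted p = 0.0057). Its partner Tie1 missed the threshold at -0.16 ± 0.06 (adjusted p = 0.055).

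Of the barrier transporters, Slco1c1, which carries thyroid hormone, lay between 52.6 and 64.8 CPM in WT striatum (median 59.5) and between 47.9 and 56.6 CPM in Q140 striatum (median 52.3). All 8 Q140 animals were below the WT median, 4 of them below the WT range, and Slco1c1 fell by 0.19 ± 0.04 (adjusted p = 6.9e-05). Abcb1a, the drug efflux pump P-glycoprotein, lay between 37.6 and 42.6 CPM in WT and between 34.4 and 38.9 CPM in Q140, and fell by 0.17 ± 0.04 (adjusted p = 0.0018). For Abcb1a, 7 of the 8 Q140 animals were below every WT animal. Slco1a4 had -0.15 ± 0.06 (adjusted p = 0.081). The glucose transporter Slc2a1 (0.04 ± 0.11), the lysolipid transporter Mfsd2a (-0.06 ± 0.10) and Abcg2 (0.02 ± 0.06) were not called. Vwf, the clotting factor of endothelial granules, lay between 19.1 and 26.0 CPM in WT (median 20.2) and between 15.7 and 20.5 CPM in Q140 (median 17.8), with 5 Q140 animals below the WT range. It fell by 0.21 ± 0.07 (adjusted p = 0.026), and Egfl7 had -0.13 ± 0.10. Among the transcription factor genes, the barrier genes Foxf2 and Foxq1 had -0.25 ± 0.11 and -0.33 ± 0.14 (adjusted p = 0.081 and 0.059), Sox18 had -0.26 ± 0.13 and Sox17 0.00 ± 0.09, so 0 of the 4 were called, at levels of 2.79 to 8.86 CPM for Foxf2, Foxq1 and Sox17 and of 3.10 to 7.26 CPM for Sox18 in WT.

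**Figure D1:**
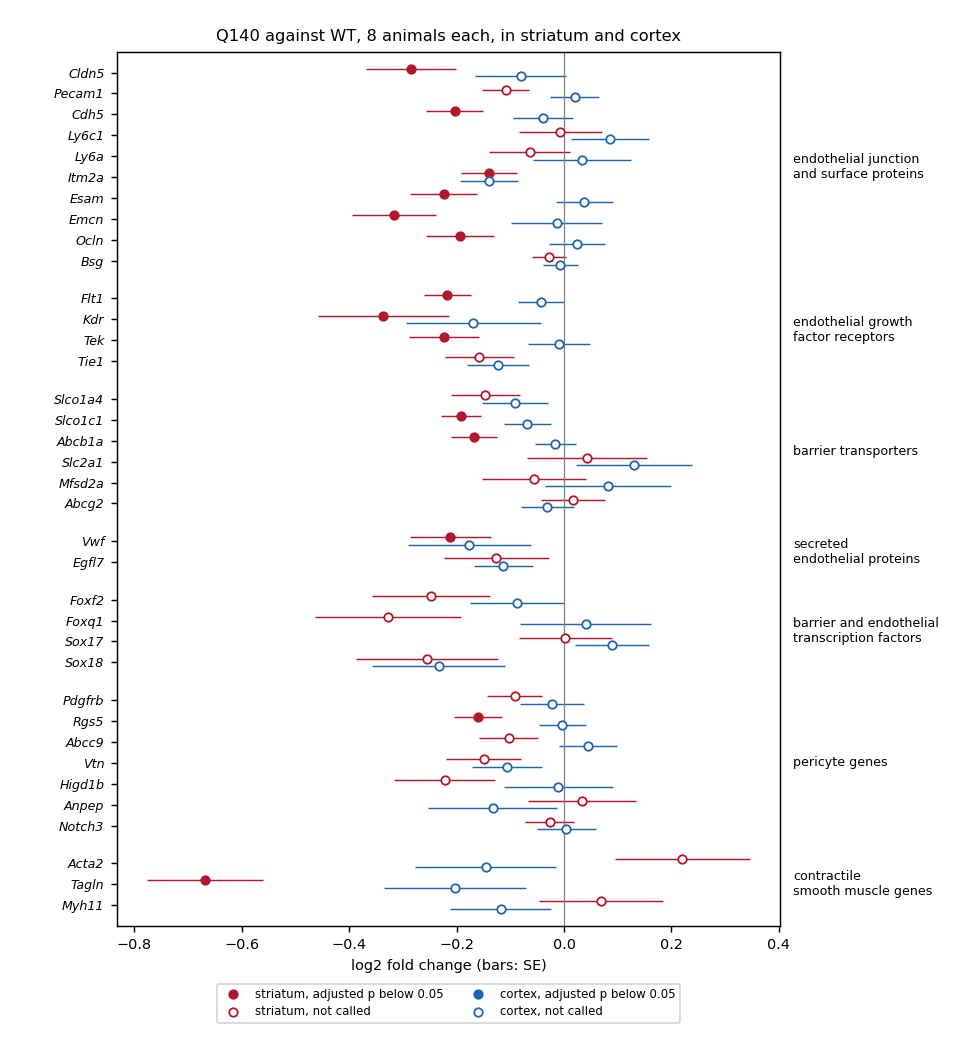
Log2 fold change (x axis, bars show SE) of the 36 members, grouped by role (y axis), for Q140 against WT in striatum and in cortex, 8 animals against 8 in each. Filled points have an adjusted p below 0.05. The striatal points lie mostly left of 0, with Tagln farthest at -0.67, and no cortical point is filled.

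The mural genes split. Of the 7 pericyte genes only Rgs5 was called, with 99.3 to 113 CPM in WT (median 105) and 87.1 to 102 CPM in Q140 (median 94.0), 6 Q140 animals below the WT range, and a fall of 0.16 ± 0.05 (adjusted p = 0.005). Pdgfrb, the receptor that defines pericytes, lay between 24.5 and 30.3 CPM in WT and between 23.9 and 30.8 CPM in Q140, and its value of -0.09 ± 0.05 was not called (95% interval -0.19 to 0.01). Vtn (-0.15 ± 0.07), Higd1b (-0.22 ± 0.09), the potassium channel subunit gene Abcc9 (-0.10 ± 0.05), the Notch receptor gene Notch3 (-0.03 ± 0.05) and Anpep (0.03 ± 0.10) were not called either. Among the smooth muscle genes, Tagln lay between 6.18 and 11.7 CPM in WT (median 8.75) and between 4.71 and 8.04 CPM in Q140 (median 5.00). All 8 Q140 animals were below the WT median and 6 were below every WT animal. Tagln fell by 0.67 ± 0.11 (adjusted p = 2.4e-06), to 0.629 of its WT level. The other contractile genes did not go with it: Acta2, smooth muscle actin, lay between 4.73 and 6.53 CPM in WT and between 4.78 and 11.0 CPM in Q140 and had 0.22 ± 0.13 (adjusted p = 0.19, 95% interval -0.03 to 0.47) and Myh11, smooth muscle myosin, 0.07 ± 0.12.

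**Figure D2:**
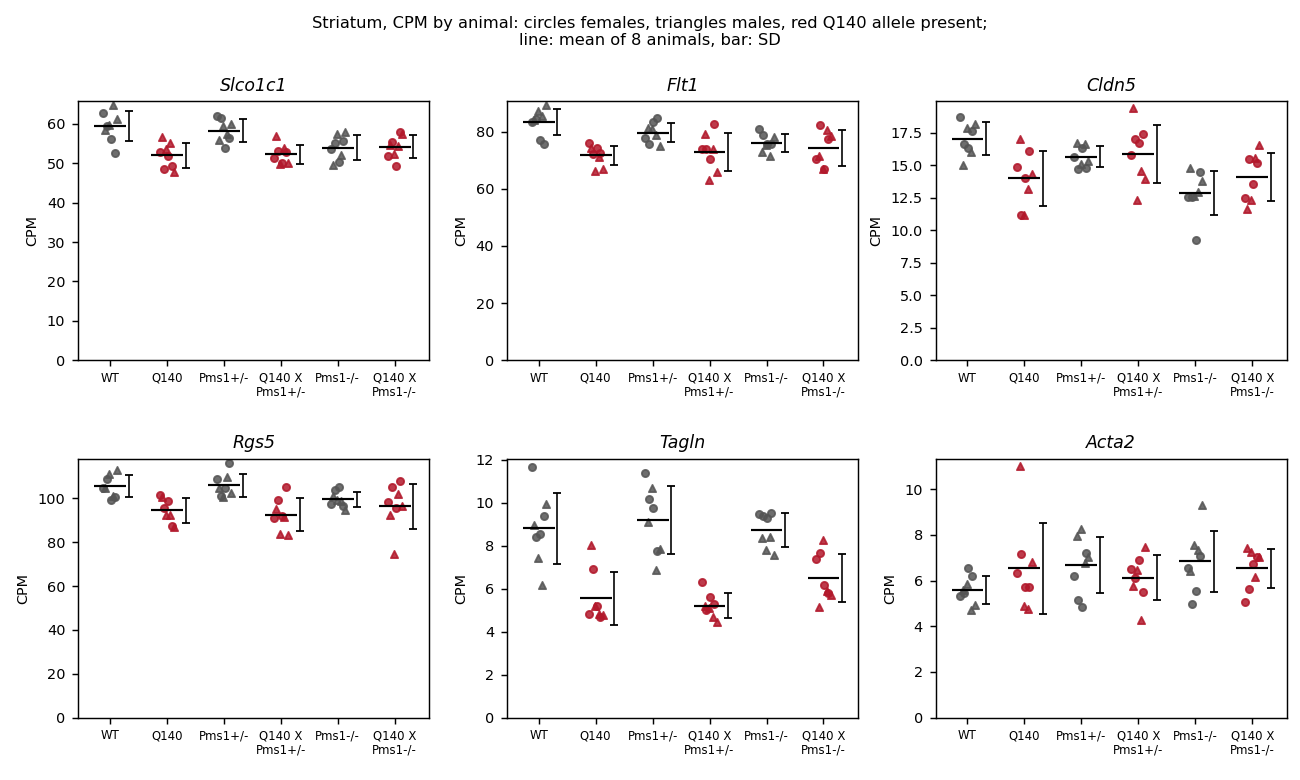
Striatal level in CPM (y axes, each starting at 0) of Slco1c1, Flt1, Cldn5, Rgs5, Tagln and Acta2 in every animal, by genotype (x axis). Circles are females, triangles males, red points carry the Q140 allele, the line is the mean of 8 animals and the bar its SD. Tagln is lower in each of the 3 knock-in genotypes than in its own control, whereas Cldn5 is lowest in Pms1-/- animals (9.25 to 14.8 CPM).

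One Q140 animal, replicate 3, was the highest of its group in striatum for Pdgfrb (30.8 CPM), Vtn (56.7 CPM), Anpep (3.88 CPM) and Acta2 (11.0 CPM). Without it, 20 members fell and 0 rose, where 2963 of all 18968 genes fell and 2896 rose. Among animals with first code numbers below 16 alone, 10 members fell, and Acta2 (0.51) and Myh11 (0.28) rose. In that fit 2456 of all 18824 genes rose and 2456 fell. Its 5 Q140 animals include replicate 3 as their only male, whereas its 6 WT animals are mostly male. By sex, 8 members fell among females, where 1831 of all 18890 genes rose and 2185 fell, and 7 among males, where 1222 of 18949 rose and 1585 fell. The sex difference of the Q140 effect itself was called for 0 members in striatum and 0 in cortex with edgeR (3 and 2 members at an unadjusted p below 0.05), where 0.00% and 0.0267% of all genes were called. Among males, Q140 but no WT animals had first code numbers of 16 or more, and among females WT but no Q140 animals did. Within a sex, genotype and code number are therefore partly confounded in these fits.

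Markers of some other cells moved with the knock-in in striatum as well, where 15.4% of all genes fell and 15.9% rose. Of 12 medium spiny neuron markers 11 fell, with a summed level of 9793 to 11217 CPM in Q140 beside 15404 to 17386 CPM in WT. Of 12 microglia markers 9 fell (460 to 533 CPM beside 534 to 572 CPM summed), of 12 astrocyte markers 2 (3855 to 4205 CPM beside 4170 to 4531 CPM), and of 12 oligodendrocyte markers 1. For the astrocyte and oligodendrocyte markers, the share that fell was near or below that over all genes. Of 12 fibroblast and meningeal markers 0 were called (218 to 272 CPM beside 207 to 255 CPM), and of 5 red blood cell genes 0, at a summed level of 0.337 to 18.9 CPM in Q140 and 0.191 to 9.79 CPM in WT. Kl was the single choroid plexus gene called (0.39, higher), and 0 of 6 ependymal genes and 0 of 3 tested perivascular macrophage and leukocyte genes were called. Their part in the vascular values was not tested. In cortex, 0 genes of these lists were called for Q140 against WT, and the 6 tested choroid plexus genes had a median of 1.87. Their summed cortical level had a median of 6.09 CPM in Q140 and 5.51 CPM in WT, but reached 754.5 CPM in the highest Q140 library and 8.59 CPM in the highest WT library.

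In cortex, 0 members were called for Q140 against WT by edgeR, where 0.0428% of all 18711 genes (8 genes) were called. At an unadjusted p below 0.05 there were 3: Itm2a (-0.14 ± 0.05), Tie1 (-0.12 ± 0.06) and Egfl7 (-0.11 ± 0.05). The median over the members was -0.03. Tagln lay between 3.82 and 6.60 CPM in WT cortex and between 3.49 and 5.64 CPM in Q140 cortex (-0.20 ± 0.13, adjusted p = 0.83), and Flt1 had -0.04 ± 0.04. Cldn5 (15.7 to 23.4 and 15.4 to 21.0 CPM), Pdgfrb (23.2 to 29.1 and 23.8 to 27.1 CPM) and Acta2 (4.40 to 8.61 and 3.88 to 7.57 CPM) had overlapping cortical ranges in WT and Q140, with 2, 0 and 1 of the 8 Q140 animals below the lowest WT animal. For Cldn5, 7 of the 8 lay below the WT median. The striatal and cortical effects were also compared directly in 1 fit of all 96 libraries. The effect was more negative in striatum than in cortex for Esam (-0.28 ± 0.08, adjusted p = 0.014), Flt1 (-0.19 ± 0.06, adjusted p = 0.034), Ocln (-0.23 ± 0.08, adjusted p = 0.045) and Abcb1a (-0.17 ± 0.06, adjusted p = 0.046), 4 members where 8.32% of all genes were called in that direction, and for 0 members in the other. Tagln had the largest value, -0.48 ± 0.17, and just missed the threshold (adjusted p = 0.052). With the animal as a block the count was 13, where 2167 of all 19723 genes were called in that direction. The added members were Cldn5, Emcn, Kdr, Tek, Slco1c1, Foxq1, Rgs5, Abcc9 and Tagln. Without scaling for RNA composition the count was 0, where 857 of all genes were called in that direction.

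The knock-in was then compared on the other Pms1 backgrounds, with different animals on each side each time. On Pms1+/-, 7 members fell and 0 rose in striatum (12.1% of all genes fell): Tagln by 0.82 ± 0.11 (adjusted p = 1.1e-07), Ocln by 0.24 ± 0.06, Cdh5 and Abcc9 by 0.21, Rgs5 by 0.20 ± 0.05, Slco1c1 by 0.16 ± 0.04 and Flt1 by 0.13 ± 0.04. Tagln lay between 6.85 and 11.4 CPM in Pms1+/- and between 4.43 and 6.33 CPM in Q140 X Pms1+/- animals, and these ranges did not overlap. On Pms1-/-, Tagln fell by 0.42 ± 0.11 (adjusted p = 0.0075) and Bsg rose by 0.11 ± 0.03 (adjusted p = 0.016), the 2 members called where 5.47% of all genes fell and 5.59% rose. There Tagln lay between 7.57 and 9.52 CPM without and between 5.13 and 8.26 CPM with the knock-in, and 6 of the 8 knock-in animals were below the range without it. Pcsk7, which shares exon bases with Tagln, fell there too, by 0.18 ± 0.05, and its part in the count of Tagln was not tested. Tagln thus fell on all 3 backgrounds, and it was the only member called on all 3. The contractile genes Acta2 and Myh11 were called on none of the 3. How much of the striatal RNA of Tagln is vascular was not tested.

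Averaged over the 3 backgrounds (24 animals with the knock-in against 24 without), 18 members fell and 0 rose, where 20.0% of all genes fell and 22.5% rose, and 34 of 36 values lay below 0 (median -0.11, beside 0.01 over all genes). The count by role was 6 of 10 junction and surface genes, 3 of 4 receptor genes, 5 of 6 transporter genes, 1 of 2 secreted protein genes, 0 of 4 transcription factor genes, 2 of 7 pericyte genes and 1 of 3 smooth muscle genes. Tagln fell by 0.63 ± 0.06 (adjusted p = 7.9e-12). Among the transporters, Slc2a1 fell by 0.16 ± 0.06, Mfsd2a by 0.14 ± 0.06, Slco1a4 by 0.12 ± 0.04, Slco1c1 by 0.11 ± 0.02 and Abcb1a by 0.11 ± 0.02. Of the junction genes, Ocln fell by 0.18 ± 0.04 and Cdh5 and Esam by 0.16, whereas Cldn5 had -0.05 ± 0.05 and was not called. Pdgfrb (-0.03 ± 0.03), Acta2 (0.01 ± 0.07) and Myh11 (-0.07 ± 0.07) were not called. Without scaling for RNA composition, 8 members fell and 1 rose, and the split over all genes went from 4255 higher and 3780 lower to 7457 higher and 2162 lower. In cortex the averaged effect was called for 0 members (1 at an unadjusted p below 0.05), where 1.73% of all genes were called.

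**Figure D3:**
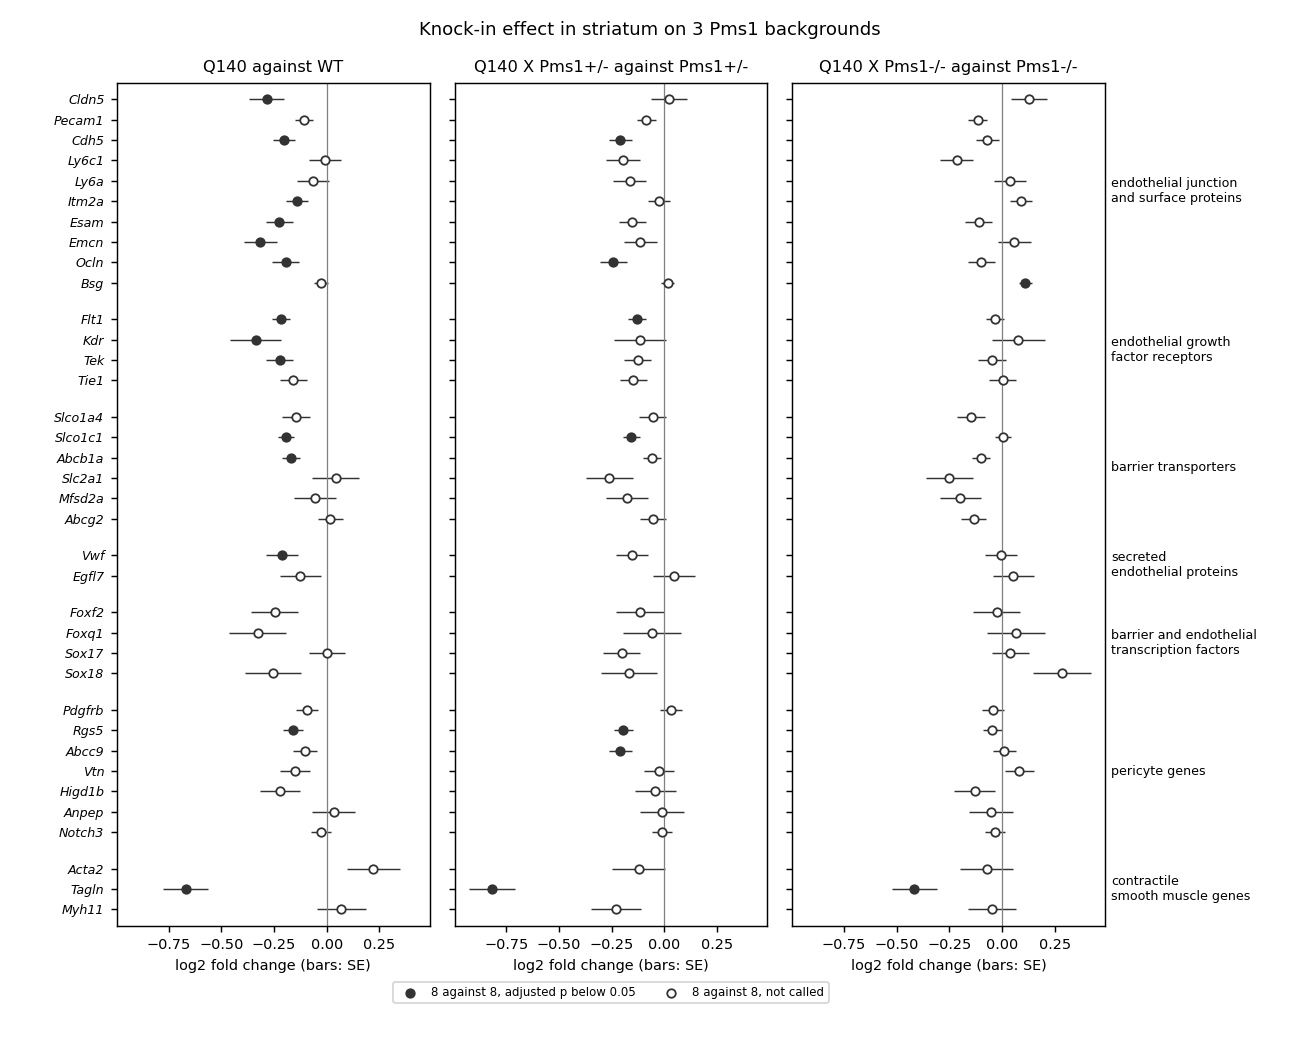
Log2 fold change (x axis, bars show SE) of the 36 members (y axis) for the knock-in in striatum on the WT, Pms1+/- and Pms1-/- backgrounds, 8 animals against 8 in each panel. Filled points have an adjusted p below 0.05. Tagln is filled in every panel (-0.67, -0.82 and -0.42), and the endothelial genes are filled mainly in the WT panel.

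Whether the knock-in effect differed between the Pms1-/- and the WT background was tested as an interaction. It was called for 3 members in striatum, all with a less negative effect on Pms1-/- (3.37% of all genes were called in that direction and 1.68% in the other): Slco1c1 (0.20 ± 0.05, adjusted p = 0.022), Cldn5 (0.41 ± 0.12, adjusted p = 0.033) and Emcn (0.38 ± 0.11, adjusted p = 0.035). For Cldn5 the medians were 17.1 CPM in WT, 14.2 in Q140, 12.8 in Pms1-/- and 14.4 in Q140 X Pms1-/- striatum. The Q140 X Pms1-/- value thus lay next to that of Q140, and the Pms1-/- value was the low one. For Emcn they were 6.09, 4.95, 5.61 and 5.56 CPM, and for Slco1c1 59.5, 52.3, 54.3 and 54.4 CPM. Without the animals of first code number 22, 0 members were called, where 569 of all 19182 genes were called higher and 265 lower. Cldn5 then had 0.31 (adjusted p = 0.14), Slco1c1 0.19 (adjusted p = 0.054) and Emcn 0.32 (adjusted p = 0.11). Without the lowest Pms1-/- animal for Cldn5, replicate 4, Emcn and Slco1c1 were called and Cldn5 had 0.36 (adjusted p = 0.055). That fit called 592 of all 18984 genes higher and 267 lower. The interaction for Tagln was 0.25 ± 0.15 (adjusted p = 0.37). Directly against Q140, Q140 X Pms1-/- striatum had 0 members called with edgeR (8 at an unadjusted p below 0.05), where 7.10% of all genes were called. Tagln had a median of 6.02 CPM there, between those of Q140 (5.00 CPM) and WT (8.75 CPM), and its difference from Q140 of 0.24 ± 0.11 had an adjusted p of 0.22 and a 95% interval of 0.02 to 0.45. The 8 members were Emcn (0.22), Ly6a (0.19), Esam (0.15), Ocln (0.14), Vwf (0.15), Myh11 (0.25), Tagln and, lower, Anpep (-0.24). For comparison, 11 of the 12 medium spiny neuron markers rose between those genotypes.

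The loss of Pms1 without the knock-in went with changes of its own. In Pms1-/- striatum, 6 members fell and 1 rose against WT, where 3.90% of all genes fell and 4.01% rose, and in Pms1-/- cortex 11 fell and 0 rose, where 4.26% fell and 5.31% rose. These comparisons use the same WT animals as those of Q140 against WT, and the cortex and striatum come from the same animals, so the lists are not independent. Kdr, Cldn5, Sox18, Itm2a, Slco1c1 and Bsg fell in striatum, and in cortex Emcn, Tie1, Cdh5, Vtn and Flt1 did so too. The tissue difference of the Pms1-/- effect was called for 0 members with edgeR (3 at an unadjusted p below 0.05), and 0.00507% of all genes were called.

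Kdr lay between 10.8 and 15.9 CPM in WT striatum (median 13.6) and between 6.80 and 12.4 CPM in Pms1-/- striatum (median 9.50), with 6 of the 8 Pms1-/- animals below the WT range. In cortex it lay between 12.7 and 17.1 CPM in WT and between 7.23 and 12.6 CPM in Pms1-/-, and the ranges did not overlap. Kdr fell by 0.48 ± 0.12 in striatum (edgeR, adjusted p = 0.012) and by 0.51 ± 0.13 in cortex (adjusted p = 0.0097), the cortical level being 0.705 of that of WT. Cldn5 lay between 9.25 and 14.8 CPM in Pms1-/- striatum against 15.0 to 18.7 CPM in WT, with no overlap, and between 9.33 and 16.9 CPM in Pms1-/- cortex against 15.7 to 23.4 CPM in WT. It fell by 0.40 ± 0.08 in striatum (adjusted p = 0.0028) and by 0.39 ± 0.08 in cortex (adjusted p = 0.0037). Sox18, which acts in the endothelium downstream of VEGF signals, lay between 3.09 and 5.06 CPM in Pms1-/- striatum against 3.10 to 7.26 CPM in WT, and fell by 0.43 ± 0.13 and, in cortex, by 0.48 ± 0.12. The ranges of Sox18 overlapped widely in striatum, where its WT animals varied most of all members.

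In cortex, Emcn fell by 0.32 ± 0.09 (3.03 to 4.39 CPM against 3.94 to 5.27 CPM), with 6 Pms1-/- animals below the WT range. Tie1 fell by 0.22 ± 0.06 (7.68 to 10.1 CPM against 9.06 to 12.1 CPM), Flt1 by 0.18 ± 0.04 (64.7 to 75.5 CPM against 71.5 to 89.7 CPM), Cdh5 by 0.20 ± 0.06 (11.2 to 14.6 CPM against 12.6 to 18.0 CPM) and Vtn by 0.20 ± 0.06 (36.0 to 54.5 CPM against 45.5 to 62.4 CPM). All of these ranges overlapped, and all 8 Pms1-/- animals lay below the WT median for Emcn, Tie1 and Flt1. Itm2a fell by 0.24 ± 0.05 in cortex (30.9 to 43.7 CPM against 40.2 to 49.2 CPM) and by 0.19 ± 0.05 in striatum (36.4 to 46.1 CPM against 45.6 to 53.4 CPM). Slco1c1 fell by 0.14 ± 0.04 in both tissues, from a median of 59.5 to 54.3 CPM in striatum and from 55.2 to 50.0 CPM in cortex. Bsg fell by 0.11 ± 0.03 in striatum and by 0.12 ± 0.03 in cortex. Of the 7 pericyte genes 0 were called in striatum and 1, Vtn, in cortex. Myh11 rose in striatum by 0.37 ± 0.11 (7.95 to 11.5 CPM against 6.25 to 8.56 CPM, adjusted p = 0.038) and had 0.01 ± 0.09 in cortex. Slc2a1 and Mfsd2a were not called over all animals, with 0.30 ± 0.11 and 0.18 ± 0.10 in striatum and 0.19 ± 0.11 and 0.26 ± 0.12 in cortex.

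The Pms1-/- effect was also taken within each sex and within animal codes, without a test of the difference between the sexes. Among females alone, 5 members rose and 3 fell in striatum, where 669 of all 18890 genes rose and 400 fell, the risen ones being Slc2a1 (0.63 ± 0.16), Myh11 (0.51 ± 0.13), Mfsd2a (0.50 ± 0.11), Ly6c1 (0.39 ± 0.11) and Abcg2 (0.34 ± 0.09), and 1 rose and 10 fell in cortex, where 549 of 18718 genes rose and 456 fell. Among males alone, 0 members were called in either tissue by edgeR, in fits that called 0 of all 18949 genes in striatum and 2 of 18773 in cortex, so the count says nothing particular to these genes. Kdr was at -0.30 ± 0.12 and -0.22 ± 0.11, Cldn5 at -0.31 ± 0.13 and -0.13 ± 0.09, and Slc2a1 at -0.05 ± 0.12 and -0.11 ± 0.13 in striatum and cortex. In Pms1-/- striatum, Slc2a1 was 143, 153 and 163 CPM in the 3 females of code number 22 and 129.9 CPM in the other female. It was 132 CPM in male replicate 1 and 91.6, 94.2 and 95.6 CPM in the other 3 males, which puts those males inside the WT range of 86.7 to 119 CPM and the 5 others above it. Mfsd2a divided the same animals in the same way, with 21.3 to 28.0 CPM in those 5 and 13.9 to 15.4 CPM in the 3 males, below the WT range of 16.0 to 20.2 CPM.

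Without the animals of first code number 22, 0 members were called in either tissue (5 Pms1-/- animals against 8 WT). Over all genes, 236 rose and 329 fell of 19182 in striatum, and 218 rose and 207 fell of 18947 in cortex. Kdr then had -0.34 ± 0.14 in striatum and -0.30 ± 0.14 in cortex, Cldn5 -0.30 ± 0.09 and -0.26 ± 0.08, Sox18 -0.46 ± 0.16 and -0.49 ± 0.15, and Slc2a1 0.12 ± 0.12 and 0.05 ± 0.12. Without Pms1-/- replicate 4 alone, the lowest animal for Kdr and Cldn5 in both tissues, 3 members were called in striatum (Cldn5, Kdr and Slco1c1, all lower) and 9 in cortex. Those fits called 468 of all 18984 genes higher and 510 lower in striatum, and 627 of 18784 higher and 480 lower in cortex. Within first code numbers of 16 or more, which leave 2 WT animals, 0 members were called in either tissue, where 45 of all 19899 genes rose and 57 fell in striatum and 170 of 19847 rose and 162 fell in cortex. Kdr had -0.63 ± 0.23 and -0.65 ± 0.25 and Cldn5 -0.43 ± 0.14 and -0.47 ± 0.14. Genotype and late code number largely coincide in this design and cannot be told apart.

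**Figure D4:**
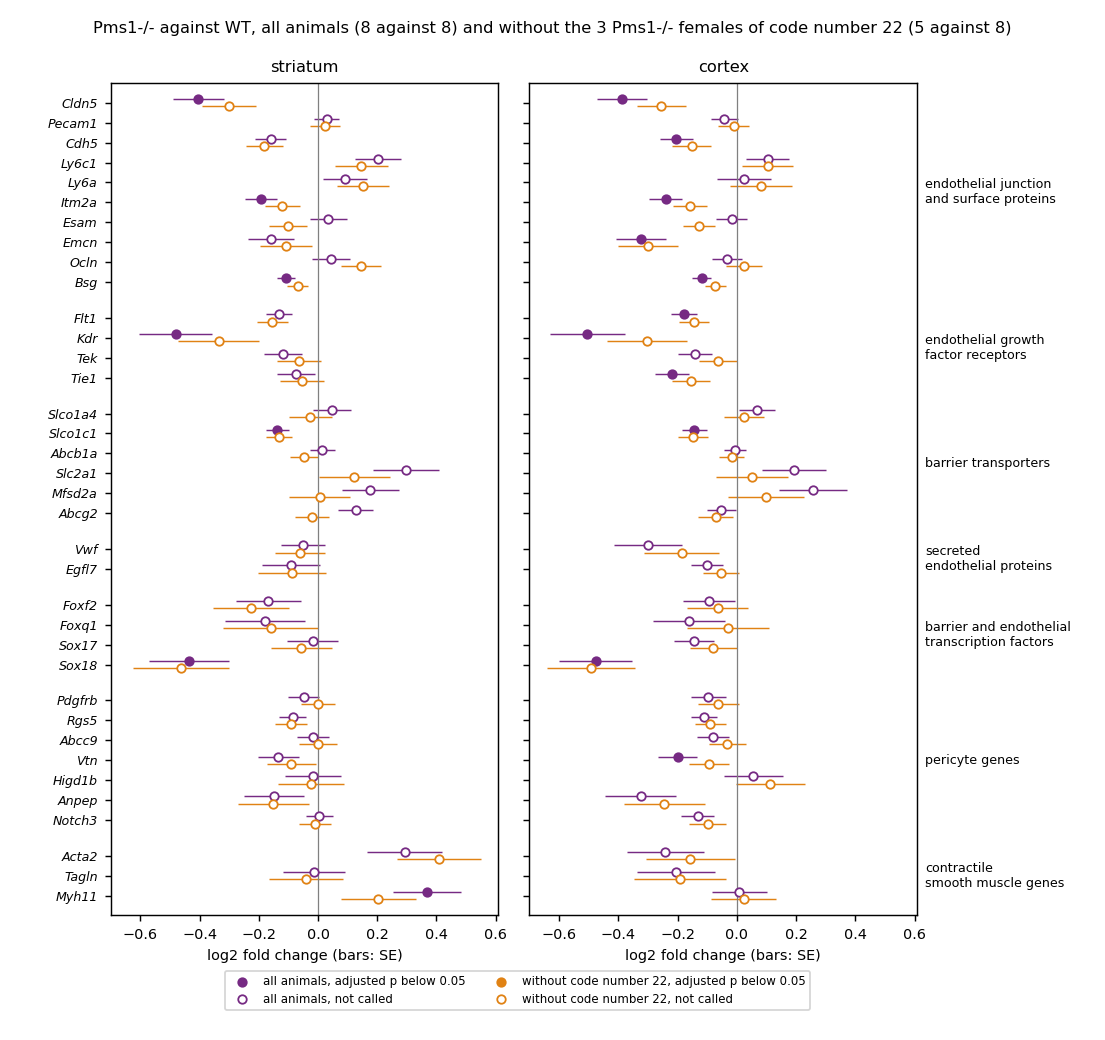
Log2 fold change (x axis, bars show SE) of the 36 members (y axis) for Pms1-/- against WT in striatum and cortex, over all animals and without the 3 females of first code number 22. Filled points have an adjusted p below 0.05. Kdr, Cldn5 and Sox18 lie farthest left in both tissues, and no point is filled once those females are left out.

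The loss of 1 Pms1 allele gave no member that could be called. Pms1+/- against WT and Q140 X Pms1+/- against Q140 had 0 members called in either tissue with edgeR, where 0.00% of all genes were called in each. At an unadjusted p below 0.05 there were 3 and 4 members in striatum and 4 and 4 in cortex. The remaining cortical comparisons also had 0 members called with edgeR: the knock-in on Pms1+/- (0 members at an unadjusted p below 0.05, 0.112% of all genes called), the knock-in on Pms1-/- (5 members, 0.0428% of all genes), Q140 X Pms1-/- against Q140 (4 members, 0.0107% of all genes) and the interaction (8 members, 0.00% of all genes). Over the 14 comparisons with 0 members called, 77 alternative fits, DESeq2 and limma among them, also called 0 members.

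Between the sexes, 24 animals of each were compared. In striatum, Vwf lay between 14.0 and 21.9 CPM in males (median 18.4) and between 15.9 and 26.0 CPM in females (median 21.2), lower in males by a log2 value of -0.23 ± 0.04 (adjusted p = 0.001). Mfsd2a was lower in males by -0.21 ± 0.06 (medians 16.4 and 18.6 CPM, adjusted p = 0.02), and Notch3 higher by 0.09 ± 0.03 (medians 21.5 and 19.9 CPM, adjusted p = 0.041, but 0.058 without a filter on low counts and 0.096 in voom with the first code number as a block), where 3.31% of all genes were called lower and 2.85% higher. The ranges of both sexes overlapped for each of these genes. In cortex, Mfsd2a was lower again (-0.23 ± 0.07, adjusted p = 0.037) and Myh11 higher (0.21 ± 0.05, adjusted p = 0.015), where 2.61% were called lower and 2.74% higher. There Mfsd2a was not called without a filter on low counts or in voom with the first code number as a block. The sex terms were not fitted without the Pms1-/- females of first code number 22, which lay above the WT range for Mfsd2a in striatum.

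Genes of the pathways around the vessel wall were read from lists of the same kind. For Q140 against WT in striatum, 9 of 25 genes of PDGF-B, Notch and TGF-beta signalling fell and 0 rose (median -0.11, beside 0.01 over all genes, of which 15.4% fell and 15.9% rose). Jag1, a Notch ligand, lay between 8.08 and 15.7 CPM in Q140 and between 14.9 and 20.5 CPM in WT, and fell by 0.77 ± 0.12 (adjusted p = 1.1e-06). Acvrl1, the TGF-beta family receptor ALK1, fell by 0.64 ± 0.11 and had no overlap (32.2 to 49.6 CPM against 55.6 to 77.5 CPM). Dll1 fell by 0.37 ± 0.08, the Notch target Hey1 by 0.34 ± 0.05, the co-receptor Eng by 0.26 ± 0.07 and Pdgfb by 0.14 ± 0.05. These genes are also expressed outside vessels, and how much of their RNA is vascular was not tested.

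Of 18 genes of WNT/beta-catenin barrier signalling, 7 fell and 0 rose (median -0.11). Tcf7, a transcription factor of the pathway, lay between 11.8 and 14.3 CPM in Q140 and between 17.8 and 21.4 CPM in WT, without overlap, and fell by 0.68 ± 0.05 (adjusted p = 7.3e-16). The ligand Wnt7a fell by 0.35 ± 0.08, its endothelial co-receptor Adgra2 by 0.32 ± 0.05 (11.9 to 14.0 CPM against 14.6 to 17.2 CPM, without overlap) and Lef1 by 0.26 ± 0.08. Of 12 tested VEGF and angiopoietin genes, 4 fell and 1 rose (median -0.13): Vegfa, the ligand of the receptors Flt1 and Kdr, fell by 0.26 ± 0.05 (81.4 to 94.7 CPM against 89.7 to 117 CPM), the phosphatase gene Ptprb by 0.19 ± 0.04, Flt4 by 0.28 ± 0.11 and Nrp1 by 0.20 ± 0.08, while Pgf rose by 0.43 ± 0.14 at about 1 CPM. Of 15 tight junction partners and permeability genes, 5 fell and 1 rose (median -0.04), among them Plvap (-0.36 ± 0.08), which forms the diaphragms of leaky vessels, the junction scaffold gene Tjp1 (-0.14 ± 0.03) and, higher, Cavin1 (0.14 ± 0.05). Of 16 further transporters and receptors, 3 fell (median -0.01), among them the amino acid transporter Slc38a5 (-0.61 ± 0.15). Of 29 further endothelial markers, 7 fell and 2 rose (median -0.14), with Icam2 at -0.42 ± 0.12, Clec14a at -0.36 ± 0.12, She at -0.32 ± 0.08, Ets2 at 0.24 ± 0.05 and Calcrl at 0.19 ± 0.06. Of 15 arterial, venous and activated endothelial genes, 1 fell (Ackr1, -0.21 ± 0.03). For the transporters, the arterial and venous genes and the mural genes described next, the share that fell was near or below the 15.4% over all genes. How much of the RNA of the WNT, VEGF and other genes of these lists is vascular was not tested either.

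Of 25 further mural genes, 3 fell and 1 rose (median -0.05). Tpm2, a tropomyosin of the contractile apparatus, was the other contractile gene with a fall of Tagln's size: it lay between 6.77 and 10.5 CPM in Q140 and between 11.7 and 16.4 CPM in WT, without overlap, and fell by 0.59 ± 0.08 (adjusted p = 1.7e-07). How much of the RNA of Tpm2 is vascular was not tested. Gper1 fell by 0.30 ± 0.10, Cox4i2 by 0.28 ± 0.10, and Mustn1 rose by 0.71 ± 0.23 at under 1 CPM. In cortex, 0 genes of these 8 lists were called for Q140 against WT. In Q140 X Pms1-/- striatum, Jag1 (0.41 ± 0.12), Tpm2 (0.40 ± 0.08), Tcf7 (0.22 ± 0.05) and Ackr1 (0.13 ± 0.03) were higher than in Q140 and 0 genes of these lists were lower. In that comparison 958 of all 18890 genes were higher and 384 lower, so a few higher genes are not particular to these lists.

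For Pms1-/- against WT, 1 of the 12 tested VEGF and angiopoietin genes fell in striatum and 2 in cortex, and 0 rose in either, where over all genes 3.90% and 4.26% fell and 4.01% and 5.31% rose. Vegfa fell by 0.23 ± 0.05 in striatum (75.3 to 103 CPM against 89.7 to 117 CPM) and by 0.28 ± 0.05 in cortex, and in cortex its co-receptor gene Nrp2 fell by 0.25 ± 0.06. Of the 18 WNT genes, Lef1 (-0.33 ± 0.08) and Tnfrsf19 (-0.18 ± 0.04) fell and Fzd4 (0.32 ± 0.09) rose in striatum. In cortex 7 of the 18 fell and 0 rose, led by Sox7 (-0.56 ± 0.12), Lef1 (-0.34 ± 0.09) and Wnt7a (-0.33 ± 0.09). Of the 25 PDGF-B, Notch and TGF-beta genes, 3 fell in striatum and 6 in cortex, with Hey1 (-0.22 ± 0.05 and -0.21 ± 0.04) and Id3 (-0.24 ± 0.07 and -0.29 ± 0.09) in both. Slc38a5 fell by 0.67 ± 0.15 in striatum, and the endothelial gene Mmrn2 by 0.49 ± 0.09 in cortex. Mustn1 rose in striatum (0.88 ± 0.22) and fell in cortex (-0.44 ± 0.14). Of 12 medium spiny neuron markers 0 were called in Pms1-/- striatum, and of 12 astrocyte markers Gjb6 rose (0.58 ± 0.12). Most of these calls went without the animals of first code number 22: over the 8 pathway lists, Lef1 and Id3 were then called in striatum and Hey1, Nkd1, Slc3a2 and Mmrn2 in cortex, all lower. Vegfa had -0.14 ± 0.05 and -0.18 ± 0.05 (adjusted p = 0.13 and 0.059).

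Within genotype and sex, some members varied together from animal to animal. Deviations of log2 CPM from the mean of each genotype and sex were correlated over the 48 animals in 25 planned relations, with p-values from 100000 permutations within genotype and sex, adjusted over the 25. Cldn5 went with Flt1 in striatum (Pearson r = 0.58, Spearman rho = 0.59, adjusted permutation p = 0.000571) and cortex (r = 0.50, rho = 0.52, adjusted permutation p = 0.00282). It went with Pdgfrb as well (r = 0.56, rho = 0.50, adjusted permutation p = 0.00329 in striatum; r = 0.62, rho = 0.62, adjusted permutation p = 0.0005 in cortex). Animals with more Cldn5 had less Slc2a1, with r = -0.52 and rho = -0.52 in striatum (adjusted permutation p = 0.000542) and r = -0.53 and rho = -0.52 in cortex (adjusted permutation p = 0.00215). Leaving out the 2 animals farthest from the median left these r between 0.41 and 0.64 in size. Within first code numbers below 16 (26 animals) the r of Cldn5 and Slc2a1 was -0.64 and -0.62, and within 16 or more (22 animals) -0.41 and -0.54. Cldn5 was not related to Acta2 or to the haemoglobin gene Hbb-bs (adjusted permutation p between 0.226 and 0.652). With Ly6c1, another endothelial gene, it had negative values that were not called. They were r = -0.21 and rho = -0.20 in striatum (adjusted permutation p = 0.165) and r = -0.34 and rho = -0.34 in cortex (adjusted permutation p = 0.0668).

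The contractile genes kept together in cortex and less so in striatum. Acta2 went with Tagln in cortex with r = 0.76 and rho = 0.73 (adjusted permutation p = 8.33e-05, 0.72 without the 2 farthest animals), but in striatum r was 0.24 and rho 0.06 (adjusted permutation p = 0.285), and 0.04 without the 2 farthest. The difference between the tissues was not tested. Acta2 and Myh11 had r = 0.75 and rho = 0.75 in cortex and r = 0.49 and rho = 0.35 in striatum (adjusted permutation p = 8.33e-05 and 0.0521). The pericyte pair Vtn and Higd1b had r = 0.47 and rho = 0.49 in striatum (adjusted permutation p = 0.00748) and r = 0.09 and rho = 0.08 in cortex, and Pdgfrb and Rgs5 were not called in either.

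For many members, an animal's deviation in one tissue went with its deviation in the other. In a family of 36 relations added after the data had been seen, 1 per member, the deviations in striatum and cortex were positively related for 24 members and negatively for 0 (adjusted permutation p below 0.05, where the smallest p that the permutations can give is 1e-05). This count has no background, since the same relation was not computed for all genes. Over the well-counted genes at large, deviations of both libraries of an animal also went together (median correlation 0.255 over 48 pairs). The median r over the members was 0.52. It was highest for Kdr (r = 0.94, rho = 0.94), Slc2a1 (r = 0.91, rho = 0.87), Mfsd2a (r = 0.86, rho = 0.86) and Egfl7 (r = 0.80, rho = 0.78), and near 0 for Tagln (r = 0.09, rho = 0.10) and Myh11 (r = 0.01, rho = 0.00). Without the 2 farthest animals the r of Kdr was 0.93 and that of Slc2a1 0.88, and within first code numbers below 16 and of 16 or more Kdr had 0.92 and 0.96 and Slc2a1 0.88 and 0.91. Both tissues come from 1 animal with 1 code number, and these shared sources cannot be told apart in such values.

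**Figure D5:**
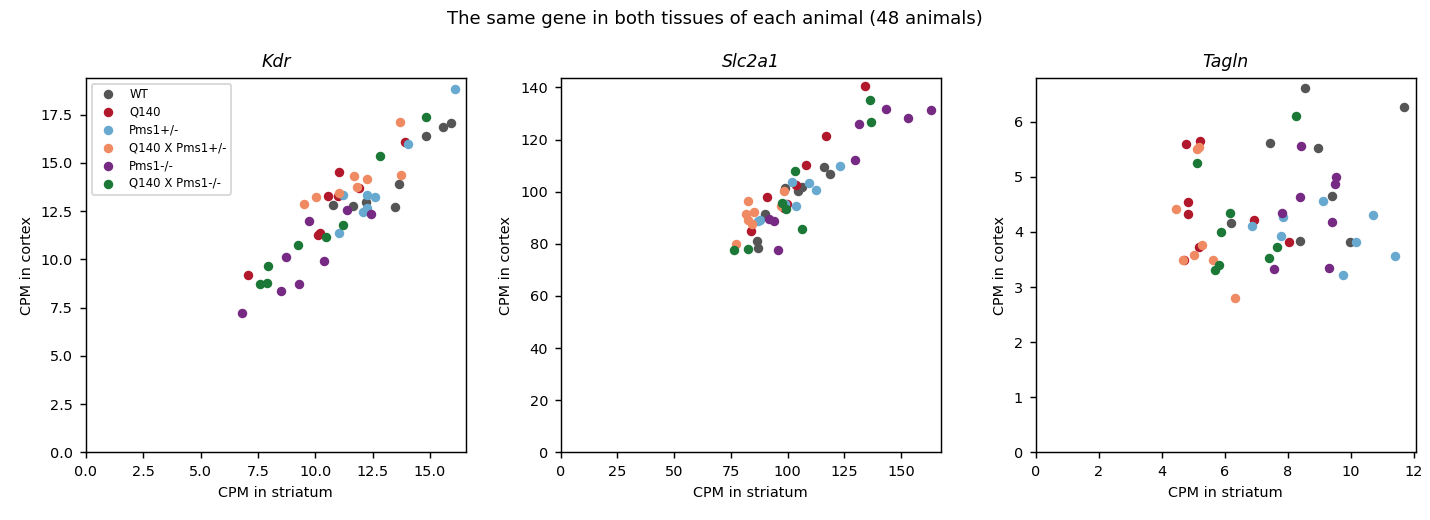
CPM in striatum (x axes) against CPM in cortex (y axes) of Kdr, Slc2a1 and Tagln, 1 point per animal (n = 48), coloured by genotype. Kdr and Slc2a1 lie close to a line and Tagln does not, and within genotype and sex their r was 0.94, 0.91 and 0.09.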

How the data were processed

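RNA from striatum and cortex of 48 mice was analysed from gene counts that the authors deposited for 96 libraries, together with FPKM values that the authors deposited in the same form. Per the labels' protocols, RNA was taken with Qiagen RNeasy and libraries were stranded. Per the submitters' processing notes, the tools included STAR 2.7.5c, SAMtools 1.10 and HTSeq 0.12.3, and the build was GRCm38/mm10; no label states the counting parameters. Each tissue was fitted over its 48 libraries with edgeR 4.0.16 (TMM scaling, its filter on low counts, quasi-likelihood test) with genotype and sex as terms, and Benjamini-Hochberg adjustment over all 18890 (striatum) or 18711 (cortex) genes. SE is the fold change over the root of the F statistic. Tissues were compared in 1 fit of 19723 genes. All 36 members passed the filter. The members and lists were chosen with earlier results of these data known. Levels were given for members called in Q140 against WT, Q140 X Pms1-/- against Q140, Pms1-/- against WT, an interaction or a sex term, and for Cldn5, Pdgfrb and Acta2; of each list, up to 3 called genes per direction with the largest change were named, plus ligands, receptors and defining markers.

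Animals are labelled as separate, so p-values measure the spread between animals. The animal pairs both tissues by label: over 48 pairs, the correlation of their deviations had a median of 0.255 (lowest 0.058, 46 above 0.1). Among 144 pairs of alike libraries, none agreed within sampling noise (lowest chi-square per degree of freedom 3.34). Alternatives were RLE scaling, no composition scaling, no filter, DESeq2 1.42.0, limma 3.58.1 on log2(FPKM + 0.1), voom with the first code number as a block, single sexes, code classes and the animal as a block. The fits were tested on simulated data. Of the gene rows, 48435 of 48795 matched GENCODE M21.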

Additional observations from a re-analysis of the deposited data

Results flagged for a closer look

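In 35 of 432 groups of 8 libraries, the highest or lowest level of a member stood far from the other 7, where chance alone flags about 1 in 20 groups. Several fell in the same animals. Q140 replicate 3 was highest in striatum for the mural genes Pdgfrb (30.8 CPM), Vtn (56.7 CPM), Anpep (3.88 CPM) and Acta2 (11.0 CPM), and in cortex it was highest for Cldn5 (21.0 CPM) and Foxq1 (5.60 CPM) and lowest for Vwf (15.4 CPM). Q140 replicate 2 was highest in cortex for Ly6c1 (25.1 CPM), Bsg (342.0 CPM) and Mfsd2a (24.6 CPM). Pms1-/- replicate 4, a female of code number 22, was lowest for Cldn5 in striatum (9.25 CPM) and for Pecam1 (14.9 CPM) and Flt1 (64.7 CPM) in cortex. WT replicate 5 was lowest in striatum for Ocln (6.14 CPM) and Bsg (243.0 CPM) and highest for Anpep (3.23 CPM). Q140 X Pms1-/- replicate 3 was lowest for Rgs5 in striatum (74.6 CPM) and cortex (75.9 CPM).

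The other values that stood apart in striatum were those of Q140 X Pms1+/- animals for Bsg (300.0 CPM) and Vtn (58.4 CPM), both in replicate 7, and Pdgfrb (31.0 CPM), all highest. In Pms1+/- striatum Tek (15.8 CPM) and Slco1a4 (67.8 CPM) had 1 high animal each, as Egfl7 (20.2 CPM) did in WT, and Higd1b had 1 low animal in Pms1-/- (1.97 CPM). In cortex, Kdr (17.1 CPM) and Foxq1 (7.15 CPM) had a high animal in Q140 X Pms1+/-, Foxq1 (5.49 CPM) in Pms1+/-, Abcb1a (45.4 CPM) and Foxf2 (4.38 CPM) in WT, and Esam (17.6 CPM) and Emcn (5.75 CPM) in Q140 X Pms1-/-. Rgs5 (105.0 CPM) and Myh11 (10.8 CPM) were high in Pms1-/- replicate 7 in cortex, and Abcg2 (17.5 CPM) was low in 1 WT animal.

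The knock-in effect differed between the Pms1-/- and WT backgrounds in striatum, by the interaction in edgeR, for Cldn5 (0.41), Emcn (0.38) and Slco1c1 (0.20). It differed between striatum and cortex for Esam (-0.28), Ocln (-0.23), Flt1 (-0.19) and Abcb1a (-0.17).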

How the results depend on the processing

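No called log2 fold change of a member changed sign under the alternatives tried. Of values that were not called, Slc2a1 in Pms1-/- against WT striatum went from 0.30 to -0.05 in males, and the r of Acta2 with Tagln in striatum from 0.24 to -0.32 within first code numbers of 16 or more. The balance of calls for Pms1-/- in striatum went from 1 higher and 6 lower member to 5 higher and 3 lower in females, and that over all genes turned without scaling for RNA composition in several comparisons, given below. The number of members called changed as follows. For Q140 against WT in striatum (14 members), it was 7 without scaling for RNA composition, 7 with limma on FPKM, 8 in females and 7 in males. For the averaged knock-in effect in striatum (18 members), it was 9 without that scaling, 9 with limma on FPKM, 9 in females and 10 in males. For the interaction in striatum (3 members), it was 7 with DESeq2 and 0 without scaling, with limma on FPKM or without the animals of first code number 22. For Pms1-/- against WT it was 0 in males, 0 within first code numbers of 16 or more and 0 without the animals of code number 22, in striatum (7 members) and cortex (11 members) alike. In striatum it was also 3 with voom and the code number as a block, and 3 without Pms1-/- replicate 4. For the sexes in cortex (2 members), it was 1 without a filter and 1 with voom, Mfsd2a being lost, and in striatum (3 members) 2 with either, Notch3 being lost. Leaving out animals was chosen after seeing the data. The causes were not tested.

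With the animal as a block, the pairing of both tissues moved the count from 13 to 20 for WT striatum against WT cortex, and from 4 to 13 for the tissue difference of the Q140 effect, which was 0 without scaling for RNA composition. Over all genes, the higher and lower calls went from 7601 and 7395 to 7808 and 7576 in the first and from 977 and 1640 to 1412 and 2167 in the second. The block changed no other count of members.

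Without scaling for RNA composition, the split of all genes into higher and lower calls moved by over 10 percentage points in several comparisons. In striatum it went from 2421 and 2277 to 4699 and 1413 for the knock-in on Pms1+/-, from 1056 and 1034 to 1756 and 755 on Pms1-/-, from 758 and 736 to 885 and 490 for Pms1-/-, from 958 and 384 to 622 and 1526 for Q140 X Pms1-/- against Q140, from 637 and 317 to 367 and 1004 for the interaction and from 538 and 626 to 1195 and 374 for the sexes. In cortex it went from 131 and 193 to 189 and 124 for the averaged effect, and for the tissue difference of the Q140 effect from 977 and 1640 to 3380 and 857.

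Of single calls, 67 stayed and 0 were lost with DESeq2, 84 and 0 with RLE scaling, 57 and 27 without scaling, 43 and 24 with limma on FPKM, 56 and 11 without a filter, 29 and 21 in females, 17 and 33 in males, and 0 and 21 without code number 22. Of 50 alternative correlations, Acta2 with Tagln in striatum moved by more than its spread. Depth limits the rarest members most: Higd1b averaged 2.47 CPM in WT striatum and 1.80 CPM in WT cortex, and Anpep, Foxq1, Foxf2 and Sox18 lay at a few CPM as well. Other than those named, single animals were not left out in turn, since groups hold 8.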
